A study of Sus scrofa with 599 samples.

Results

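The mesothelial genes described here are 10 markers of mesothelium, namely WT1, UPK1B, UPK3B, MSLN, KRT8, KRT18, KRT19, LRRN4, BNC1 and CALB2, which were looked up by symbol among 21280 protein-coding genes (PCGs). An expression row was matched for 6 of the 10 (WT1, UPK1B, KRT8, KRT18, BNC1 and CALB2), and a place on the pig genome build Sscrofa11.1 was found for 9. The RNA of UPK3B, KRT19 and LRRN4, and MSLN altogether, were not analysed here. Adipose tissues (ATs) came from adult female Bama pigs, a miniature breed, in 3 nutritional groups: animals kept on a normal diet (NC), animals that gained weight on a high-fat diet (WG), and animals whose intake was restricted after the high-fat diet so that they lost weight (WL). Each group was sampled at 4 depots, and the paper took the 4 tissues from each carcass. The greater omentum (GOM), mesenteric fat (MAD) and retroperitoneal fat (RAD) are visceral, and the upper layer of backfat (ULB) is subcutaneous. RNA-seq covered 236 samples, with 9, 45 and 10 samples of GOM in NC, WG and WL, 12, 36 and 10 of MAD, 12, 39 and 10 of RAD, and 5, 38 and 10 of ULB. Hi-C maps of chromatin contacts covered 240 samples, and H3K27ac ChIP-seq, which marks active enhancers and promoters, was given as 18 tables that pool 1 to 11 samples each. The labels name the tissue only, and for RNA-seq and ChIP-seq no step is described that separated the mesothelium from the fat beneath it. For Hi-C, the paper's methods centrifuged the cross-linked tissue and kept the upper layer with the adipocytes. How many mesothelial cells that layer held was not measured.

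The mesothelium is the single sheet of flat epithelium-like cells that lines the body cavities and covers the organs and fat pads within them. It arises from mesoderm, makes keratins as epithelia do, and secretes a lubricating fluid. The omentum is a fold of peritoneum with this lining on its surfaces, whereas backfat lies under the skin and has none. A bulk sample cannot tell fewer mesothelial cells from less RNA per cell, and this holds for every RNA value below.

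The counts assigned to PCGs ranged from 3337098 to 22939420 per library, with a median of 16791659. RNA levels are given as TPM, a length-normalized share of the transcripts of a library. The share of TPM that fell on PCGs ranged from 65.6 to 96.9%, and it was under 90% in 48 libraries, among them 7 of 9 in NC GOM, 8 of 10 in WL GOM and 7 of 10 in WL MAD against 4 of 45 in WG GOM and 2 of 36 in WG MAD. These libraries are called low-share libraries. A few libraries stood apart in the mesothelial genes. In WG GOM replicate 35, the shallowest library, UPK1B was listed at 0. WG ULB replicate 7 had 23.8 TPM of WT1 and 10.4 TPM of UPK1B, with the lowest summed adipocyte markers of its group (8379 TPM). NC MAD replicates 1 and 6 had 16.5 and 10.3 TPM of UPK1B, and replicate 1 had the lowest adipocyte sum of its group (4096 TPM), with 113.7 TPM of skeletal muscle markers against a group median of 4.2 TPM and 15.9 TPM of keratinocyte markers against 2.11 TPM. Results whose call changed without these libraries are given with and without them.

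The promoters of the 4 genes on which most of the results turn are shown first, as the 250 bases before the RefSeq start on Sscrofa11.1, read 5′ to 3′ on the strand of the gene. WT1 (ENSSSCG00000013316, chr2:28411467-28456007, plus strand) encodes a zinc-finger transcription factor of the mesothelium, kidney and gonad. UPK1B (ENSSSCG00000011904, chr13:141013953-141026368, minus strand) encodes a tetraspanin of the urothelial plaque. KRT8 (ENSSSCG00000000252, chr5:18172423-18180277, minus strand) encodes a type II keratin of simple epithelia. BNC1 (ENSSSCG00000001798, chr7:51651179-51679781, plus strand) encodes basonuclin, a zinc-finger protein of proliferating epithelial cells. Capitals mark matches on either strand to the TEAD motif CATTCC, the GATA motif AGATAA, the E-box CAGCTG and the GC box GGGCGG.
WT1, chr2:28411217-28411466, plus strand: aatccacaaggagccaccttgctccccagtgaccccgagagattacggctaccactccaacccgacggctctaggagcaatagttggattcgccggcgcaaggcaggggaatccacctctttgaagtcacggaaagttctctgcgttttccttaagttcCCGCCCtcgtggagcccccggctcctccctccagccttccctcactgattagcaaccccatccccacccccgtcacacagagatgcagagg
UPK1B, chr13:141026369-141026618, minus strand: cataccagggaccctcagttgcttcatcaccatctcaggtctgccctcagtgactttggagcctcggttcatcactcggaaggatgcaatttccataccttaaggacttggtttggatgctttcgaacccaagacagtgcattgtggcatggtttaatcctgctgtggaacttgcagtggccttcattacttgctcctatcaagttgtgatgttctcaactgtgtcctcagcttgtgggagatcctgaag
KRT8, chr5:18180278-18180527, minus strand: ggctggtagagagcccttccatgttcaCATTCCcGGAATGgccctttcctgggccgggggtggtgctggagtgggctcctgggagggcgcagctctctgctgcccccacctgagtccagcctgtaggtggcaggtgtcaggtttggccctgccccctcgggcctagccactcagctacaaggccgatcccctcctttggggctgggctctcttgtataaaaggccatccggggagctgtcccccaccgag
BNC1, chr7:51650929-51651178, plus strand: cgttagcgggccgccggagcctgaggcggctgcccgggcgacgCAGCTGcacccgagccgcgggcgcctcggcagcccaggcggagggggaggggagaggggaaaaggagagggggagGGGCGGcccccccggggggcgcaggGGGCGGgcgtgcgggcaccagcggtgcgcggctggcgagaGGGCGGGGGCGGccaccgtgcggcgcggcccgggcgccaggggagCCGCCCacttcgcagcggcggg

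The windows of these genes had little in common. The GC content was 59.2% for WT1, 48.8% for UPK1B, 65.2% for KRT8 and 83.2% for BNC1. BNC1 held 5 GC boxes and 1 E-box, WT1 held 1 GC box, and UPK1B held none of the 4 motifs. KRT8 held 2 CATTCC matches, which lay side by side on opposite strands at 223 and 216 bases before the start. None of the matches overlapped another. Of 18722 promoters of the same length, CATTCC was found in 10.2%, AGATAA in 7.96%, CAGCTG in 13.7% and GGGCGG in 46.1%. A match describes these letters and does not show that a factor binds there.

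WT1, UPK1B, KRT8 and BNC1, 4 of the 6 measured genes, were far higher in GOM than in every other depot under each diet, and WT1 was the one of them with the highest medians in MAD and RAD. KRT18 did not follow KRT8, and CALB2 was near 0 in most samples. The TPM scale is per transcript length, so levels of different genes can be set side by side.

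**Figure D1:**
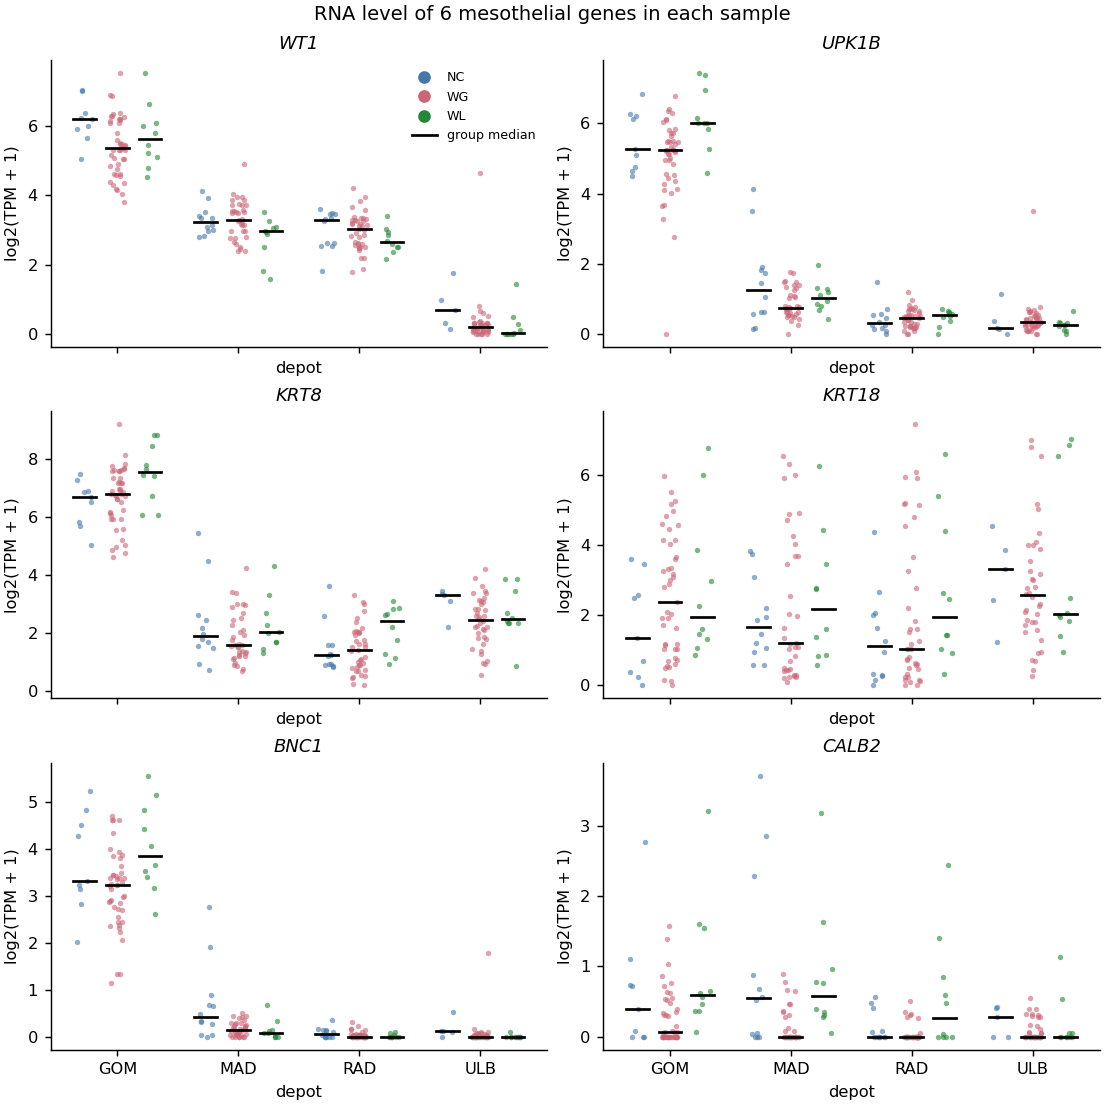
RNA level of the 6 measured genes in each of 236 samples, as log2(TPM + 1) on the vertical axis, by depot on the horizontal axis and by nutritional group in colour, with black bars for group medians. WT1, UPK1B, KRT8 and BNC1 were highest in GOM, WT1 had group medians of 5.24 to 8.85 TPM in MAD and RAD, and KRT18 spread widely in every depot.

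WT1 marked the visceral depots as a whole, with a step up in GOM. In GOM the lowest, median and highest values were 31.9, 71.8 and 130.2 TPM in NC, 12.9, 40.2 and 181.8 TPM in WG, and 21.9, 48.2 and 181.5 TPM in WL. In MAD they were 6.0, 8.46 and 16.2 TPM in NC, 4.25, 8.85 and 28.9 TPM in WG, and 2.0, 6.77 and 10.4 TPM in WL. In RAD the medians were 8.80, 7.21 and 5.24 TPM, and in ULB they were 0.627, 0.154 and 0.0144 TPM. In NC and WL each GOM sample was above each sample of the other depots, whereas the lowest WG GOM samples lay below the highest WG samples elsewhere.

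UPK1B was close to absent outside GOM. In GOM its lowest, median and highest values were 21.6, 37.5 and 113.6 TPM in NC, 0, 36.9 and 107.9 TPM in WG, and 23.1, 63.2 and 171.5 TPM in WL. The WG value of 0 was replicate 35. In MAD the medians were 1.43, 0.690 and 1.03 TPM in NC, WG and WL, and in RAD and ULB they lay between 0.129 and 0.464 TPM. The one library outside GOM and NC MAD above 3 TPM was WG ULB replicate 7.

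KRT8 was the most abundant of the measured genes in GOM. Its lowest, median and highest values there were 31.5, 101.7 and 178.3 TPM in NC, 23.5, 110.8 and 583.9 TPM in WG, and 65.9, 186.6 and 451.8 TPM in WL. In MAD the medians were 2.70, 1.97 and 3.03 TPM, and in RAD they were 1.33, 1.64 and 4.33 TPM. ULB, which has no mesothelial lining, had medians of 8.96, 4.42 and 4.52 TPM. Only NC MAD replicate 6, with 42.5 TPM, lay within the range of GOM samples of its own diet.

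BNC1 was the lowest of the 4 genes in GOM and the one nearest to 0 elsewhere. Its lowest, median and highest GOM values were 3.03, 8.97 and 36.4 TPM in NC, 1.21, 8.33 and 24.9 TPM in WG, and 5.08, 13.6 and 45.8 TPM in WL. Elsewhere its group medians ran from 0 to 0.335 TPM. No RAD sample was above 0.278 TPM, and the highest MAD and ULB samples were NC MAD replicate 1 (5.81 TPM) and WG ULB replicate 7 (2.41 TPM).

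KRT18 (ENSSSCG00000000253, chr5:18217686-18221432, plus strand), the type I keratin with which KRT8 forms filaments, lies 37.4 kb from KRT8. Its medians in NC, WG and WL were 1.55, 4.24 and 2.95 TPM in GOM, 2.20, 1.3 and 3.91 TPM in MAD, 1.18, 1.04 and 3.13 TPM in RAD, and 8.96, 4.96 and 3.12 TPM in ULB. Single samples reached 174.5 TPM in WG RAD and 131.3 TPM in WL ULB, so the depots overlapped throughout. CALB2 (ENSSSCG00000002730, chr6:14392220-14420663, plus strand), the calcium-binding protein calretinin, had group medians of at most 0.512 TPM. Its highest value was 12.1 TPM in NC MAD replicate 1, followed by 8.25 TPM in WL GOM replicate 3 and 8.09 TPM in WL MAD replicate 3. It did not pass the filter on low values in any group and was not tested.

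Depots were compared within each nutritional group by edgeR's quasi-likelihood test over all PCGs that passed the filter, with p-values adjusted by Benjamini-Hochberg over those PCGs. A gene was called where the adjusted p was below 0.05 and the fold change above 1.5. The SE given with a log2 fold change was derived as its absolute value over the square root of the F statistic of the test. Of 44 tests of members in which GOM was compared with another depot, 36 were called higher in GOM and 0 lower. They were the 9 comparisons each of WT1, UPK1B, KRT8 and BNC1. BNC1 passed the filter in no group outside GOM, and UPK1B passed it outside GOM in WL MAD alone. These 2 genes were thus tested almost only because they are high in GOM. Their calls describe that level and are not separate support for it. The share of all PCGs called higher in NC, WG and WL was 10.2, 3.81 and 3.78% for GOM over MAD, 9.59, 7.08 and 8.13% for GOM over RAD, and 12.1, 10.3 and 9.81% for GOM over ULB. The 2 groups did not overlap in 6 of 9 comparisons for WT1, 6 for UPK1B, 8 for KRT8 and 7 for BNC1. Of all PCGs, 0.697, 0.0946 and 1.08% did not overlap between GOM and MAD in NC, WG and WL, 2.46, 0.352 and 2.3% between GOM and RAD, and 7.7, 0.321 and 3.39% between GOM and ULB. KRT18 was called in none of its 8 tests.

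Against MAD, the log2 fold changes of WT1 were 3.06 (SE 0.21, adjusted p = 5.05e-09) in NC, 2.29 (SE 0.17, adjusted p = 1.19e-20) in WG and 3.26 (SE 0.36, adjusted p = 2.42e-06) in WL. UPK1B gave 4.01 (SE 0.65, adjusted p = 0.000155), 5.27 (SE 0.25, adjusted p = 3.96e-32) and 6.08 (SE 0.43, adjusted p = 1.05e-08). KRT8 gave 3.84 (SE 0.61, adjusted p = 0.000131), 5.18 (SE 0.29, adjusted p = 1.79e-27) and 5.46 (SE 0.55, adjusted p = 7.01e-07). WT1 thus had the smallest change against MAD under each diet. BNC1 gave 3.93 (SE 0.73, adjusted p = 0.00066), 5.98 (SE 0.28, adjusted p = 3.19e-32) and 7.21 (SE 0.63, adjusted p = 1.35e-07). Without NC MAD replicates 1 and 6 the NC changes of UPK1B, KRT8 and BNC1 were 5.45, 5.29 and 5.60. Among libraries with at least 90% of TPM on PCGs, where 2 NC GOM samples remain, those changes were 3.68, 3.08 and 3.82 (adjusted p = 0.135, 0.172 and 0.164) and were no longer called, and WT1 over MAD in WL was 1.95 (adjusted p = 0.0853).

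Against RAD in NC, WG and WL, the log2 fold changes were 3.28, 2.63 and 3.42 for WT1, 7.03, 6.52 and 7.61 for UPK1B, 5.28, 5.73 and 5.79 for KRT8, and 7.87, 8.06 and 9.74 for BNC1. Against ULB they were 6.50, 5.86 and 7.77 for WT1, 7.35, 6.01 and 8.69 for UPK1B, 3.74, 4.51 and 5.13 for KRT8, and 6.85, 6.70 and 10.38 for BNC1. The fitted fold changes of BNC1 depend on how values near 0 are treated, since 21 of 39 WG RAD samples and 9 of 10 WL ULB samples were at 0. The estimates of WT1 were larger against ULB than against RAD and those of KRT8 larger against RAD, and the difference between these changes was not tested.

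**Figure D2:**
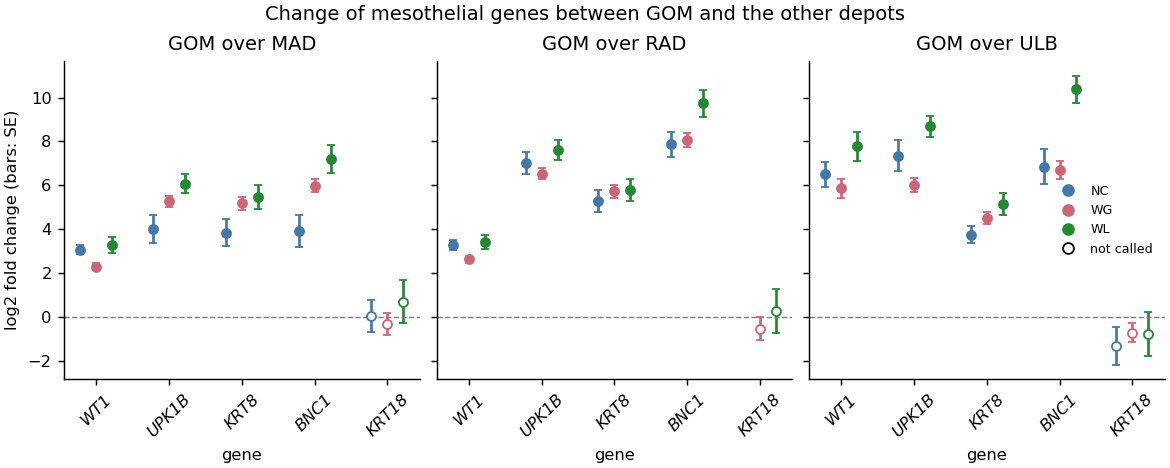
Log2 fold change of GOM over MAD, RAD and ULB from edgeR, with bars for the SE derived from its F statistic, for 5 genes in NC, WG and WL. Filled points, all at or above 2.29, were called, and the open points of KRT18 were not. KRT18 in GOM over RAD in NC was not tested.

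The other 3 depots differed from each other mainly in WT1, which was higher in MAD and RAD than in ULB under each diet. Of 28 tests of members between MAD, RAD and ULB, 10 were called, 8 higher and 2 lower in the depot named first. The share of all PCGs called in NC, WG and WL was 2.41, 5.4 and 7.31% for MAD over RAD, 7.73, 14.4 and 14.4% for MAD over ULB, and 4.32, 9.27 and 4.34% for RAD over ULB. WT1 in MAD over ULB gave log2 fold changes of 3.36 (SE 0.53, adjusted p = 0.000408), 3.59 (adjusted p = 3.94e-11) and 4.56 (adjusted p = 7.24e-05). In RAD over ULB it gave 3.15 (adjusted p = 0.00206), 3.22 (adjusted p = 7.77e-10) and 4.40 (adjusted p = 4.34e-05). In MAD over RAD it gave 0.21, 0.36 and 0.14, none of them called. UPK1B was higher in MAD than in RAD and ULB in WL, by 1.52 (SE 0.41, adjusted p = 0.0230) and 2.60 (adjusted p = 0.000217). Of the groups outside GOM, WL MAD was the only one in which UPK1B passed the filter. With the low-share term, in a group where 7 of 10 WL MAD libraries were low-share, MAD over RAD was 1.13 (adjusted p = 0.160) and was not called. KRT8 went the other way in WG, where it was lower in MAD (-0.66, adjusted p = 0.0324) and in RAD (-1.23, adjusted p = 0.00018) than in ULB. Without WG ULB replicate 7 and WG GOM replicate 35, KRT8 in MAD over ULB in WG was -0.59 (adjusted p = 0.0584) and was not called. In NC, KRT8 in MAD over ULB was -0.12 (adjusted p = 0.949) with all libraries, and -1.56 (adjusted p = 0.0199), a call, without NC MAD replicates 1 and 6.

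Epithelial markers of other tissues were read beside these values. The summed TPM of 6 genes of gut or duct epithelium had medians of 25.6, 17.8 and 20.6 in GOM of NC, WG and WL, and of 5.07 to 10.0 in the other depots. Most of the GOM sum was CDH1, the adhesion molecule E-cadherin, with medians of 18.3, 13.3 and 17.5 TPM in GOM and of 0.518 to 1.48 TPM elsewhere. EPCAM had medians of 0.524 to 1.99 TPM over all 12 groups, and CDX2, the gut transcription factor, had a median of 0 in each of them. Single libraries stood out: WG MAD replicate 39, the highest of its group in KRT8 (17.9 TPM), had 61.2 TPM of the gut or duct genes and 272 TPM of 5 kidney and adrenal genes, against group medians of 5.07 and 29.2 TPM. WG RAD replicate 45, the highest of its group in KRT8 (8.95 TPM), had 88.7 TPM of the kidney and adrenal genes against a median of 33.7 TPM. Their part in the KRT8 values was not tested. The summed adipocyte markers had medians of 7732, 14127 and 13027 TPM in GOM, 16223, 18063 and 15363 TPM in MAD, 18319, 21316 and 22592 TPM in RAD, and 14053, 14676 and 21658 TPM in ULB. The part of the adipocyte share in the depot differences was not tested.

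Other genes known from mesothelium were compared in the same way, from a list of 26 of which 22 had a row. Against MAD, 13 of 18 tested were called higher and 1 lower in NC, 11 and 0 of 18 in WG, and 13 and 1 of 18 in WL, with median log2 fold changes of 1.56, 1.33 and 1.87. Of all PCGs, 17.7, 6.27 and 5.97% were called in either direction in these comparisons. Against RAD the medians were 2.65, 2.22 and 2.63, and against ULB they were 2.70, 2.66 and 3.46. The medians over all PCGs lay between -0.04 and 0.02. KRT7, RSPO1, GPM6A, PKHD1L1, ALDH1A2, CLDN15, EZR, CRB2, GATA6 and C3 were called higher in GOM in all 9 comparisons. GPM6A, a membrane glycoprotein, averaged 119.2, 71.3 and 169.9 TPM in GOM of NC, WG and WL. The transcription factor TCF21 instead averaged 8.34 TPM in WG GOM and 9.40 TPM in WG MAD, against 0.367 TPM in RAD and 0.130 TPM in ULB. SLPI, a protease inhibitor, and TBX18, a T-box factor, were called lower in GOM in 6 and 7 of 9 comparisons.

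The PCGs outside the list whose 12 group means of log2(TPM + 1) were most like the mean of the members were picked from 12071 PCGs. They were GATA5 (Pearson r = 0.996 over 12 group means), NELL2 (0.995), BMP3 (0.994), EPS8L2 (0.994), WWC1 (0.993), ISL1 (0.991), ALOX15 (0.991), SERPINE3 (0.990) and 2 IDs with no symbol. GATA5, a zinc-finger factor, averaged 11.9, 9.68 and 18.5 TPM in GOM and at most 0.441 TPM elsewhere. Of the members, UPK1B had 0.997 with that mean, BNC1 0.994, KRT8 0.971, WT1 0.858 and KRT18 -0.0647. The mean was made from these same 5 genes, so each of these values sets a part against a whole that holds it. CALB2, which was left out of the mean, had 0.462. These 12 means share depots and diets, so the values describe a likeness only.

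The second question was whether weight gain or loss changed these genes within a depot. The changes were small beside the depot differences, and fewer were called without the low-share libraries. Of 40 tests of members, 10 were called, 3 higher and 7 lower in the group named first. Over the 12 diet comparisons 2.38 to 36.1% of all PCGs were called, and the share of member tests called lay within that range. KRT18 was called in none.

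In GOM, WT1 and BNC1 fell from NC to WG, with log2 fold changes of -0.94 (SE 0.25, adjusted p = 0.0025) and -1.0 (SE 0.29, adjusted p = 0.0062), where 26.7% of all PCGs were called. UPK1B gave -0.71 (adjusted p = 0.0628) and KRT8 0.08. Without WG GOM replicate 35, in which it was listed at 0, UPK1B gave -0.65 (adjusted p = 0.0445) and was called. It was also called with DESeq2 (-0.75, adjusted p = 0.0449) and with edgeR's exact test (-0.71, adjusted p = 0.0480) on all libraries. From WG to WL, UPK1B rose by 1.11 (SE 0.29, adjusted p = 0.0105) and BNC1 by 1.03 (SE 0.28, adjusted p = 0.0131), where 5.26% were called, and KRT8 gave 0.82 (adjusted p = 0.0875) and WT1 0.33. Between WL and NC, KRT8 was higher in WL by 0.91 (SE 0.38, adjusted p = 0.0468), where 36.1% were called. In each of these comparisons the groups overlapped widely.

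The WL GOM means differed by the share of TPM on PCGs, on 8 against 2 libraries. The 8 low-share WL GOM libraries averaged 93.4 TPM of UPK1B, 21.7 of BNC1, 252.2 of KRT8 and 70.2 of WT1, and the 2 others averaged 43.3, 7.32, 118.2 and 29.9 TPM. The 2 sets overlapped, since one of the 2 others had 63.5 TPM of UPK1B and low-share replicates 4 and 7 had 37.2 and 56.1 TPM, and the highest values were those of replicates 5, 6 and 8 (122.5, 171.5 and 163.8 TPM). In NC GOM the low-share libraries had the lower mean of WT1, 71.1 against 94.4 TPM. Without low-share libraries the change from WG to WL was 0.14 (adjusted p = 0.933) for UPK1B and -0.36 (adjusted p = 0.816) for BNC1, so BNC1 turned its direction. With a term for low-share libraries in the fit they were 0.72 (adjusted p = 0.386) and 0.58 (adjusted p = 0.511). WT1 in WG over NC gave -1.08 with that term (adjusted p = 0.00746) and -1.09 without the low-share libraries (adjusted p = 0.154). For BNC1 the same values were -0.92 (adjusted p = 0.0519) and -0.97 (adjusted p = 0.230). The higher KRT8 of WL over NC became 0.58 (adjusted p = 0.519) without them. WT1 in WL over NC in GOM went from -0.58 (adjusted p = 0.131) with all libraries to -1.82 (adjusted p = 0.0167) without them, and so gained a call with 2 samples left in each group.

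In MAD, WT1 fell from WG to WL (-0.64, SE 0.21, adjusted p = 0.0188) and was lower in WL than in NC (-0.79, SE 0.23, adjusted p = 0.0084), where 17.4 and 33.1% of all PCGs were called. KRT8 fell from NC to WG (-1.26, SE 0.42, adjusted p = 0.0280), where 10.7% were called, and UPK1B was lower in WL than in NC (-1.65, SE 0.67, adjusted p = 0.0481). These last changes rested on NC MAD replicates 1 and 6. Without them KRT8 gave 0.18 (adjusted p = 0.789), UPK1B -0.26 (adjusted p = 0.70) and WT1 in WL over NC -0.65 (adjusted p = 0.0251). In RAD, WT1 was lower in WL than in NC (-0.72, SE 0.22, adjusted p = 0.0115), where 26.7% were called, and no member was called in RAD between NC and WG or WG and WL, where 16.7 and 6.37% were. Without low-share libraries WT1 gave -0.44 for WL over WG in MAD, -0.58 for WL over NC in MAD (adjusted p = 0.282) and -0.41 for WL over NC in RAD (adjusted p = 0.367), so none of the 3 was called. In ULB, KRT8 and KRT18 were the members tested and neither was called, where 2.38, 8.12 and 14.8% of all PCGs were called for WG over NC, WL over WG and WL over NC.

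Whether a diet change differed between depots was tested by an interaction over all 12 groups. Of 30 tests, 1 was called, that of BNC1 for WG over NC in GOM against MAD, with a difference of log2 changes of 2.09 (SE 0.66, adjusted p = 0.0278), where 8.87% of all PCGs were called. The shares in the other contrasts were 3.19% (GOM against RAD) and 1.19% (MAD against RAD) for WG over NC, and 2.69, 0.0531 and 3.1% for WL over WG. The mean BNC1 level went from 15.3 to 9.20 TPM in GOM and from 0.976 to 0.131 TPM in MAD. Without NC MAD replicates 1 and 6 the difference was 0.45 (adjusted p = 0.701).

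Within a depot, the genes were compared from sample to sample in WG, the largest group. UPK1B served as the reference. Over 45 WG GOM samples, log2(TPM + 1) of BNC1 correlated with that of UPK1B at Pearson r = 0.842 and Spearman rho = 0.869 (permutation p = 1e-05, the smallest that 100000 permutations can give, adjusted p = 0.00015 over 15 relations, two-sided). The r was 0.870 without the 2 samples farthest from the median of UPK1B, and 0.884 in the 41 libraries with at least 90% of TPM on PCGs. KRT8 gave r = 0.566 and rho = 0.685 (adjusted permutation p = 0.00015) and r = 0.815 without the 2 farthest samples. WT1 gave r = 0.479 and rho = 0.527 (adjusted permutation p = 0.00345), KRT18 r = 0.405 and rho = 0.476 (adjusted permutation p = 0.0139), and CALB2 r = 0.419 and rho = 0.470 (adjusted permutation p = 0.0247), with r of 0.564, 0.394 and 0.471 for these 3 without the 2 farthest samples. The WT1 value was 0.578 in the libraries with at least 90% of TPM on PCGs. CALB2 was above 0.5 TPM in 8 of the 45.

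**Figure D3:**
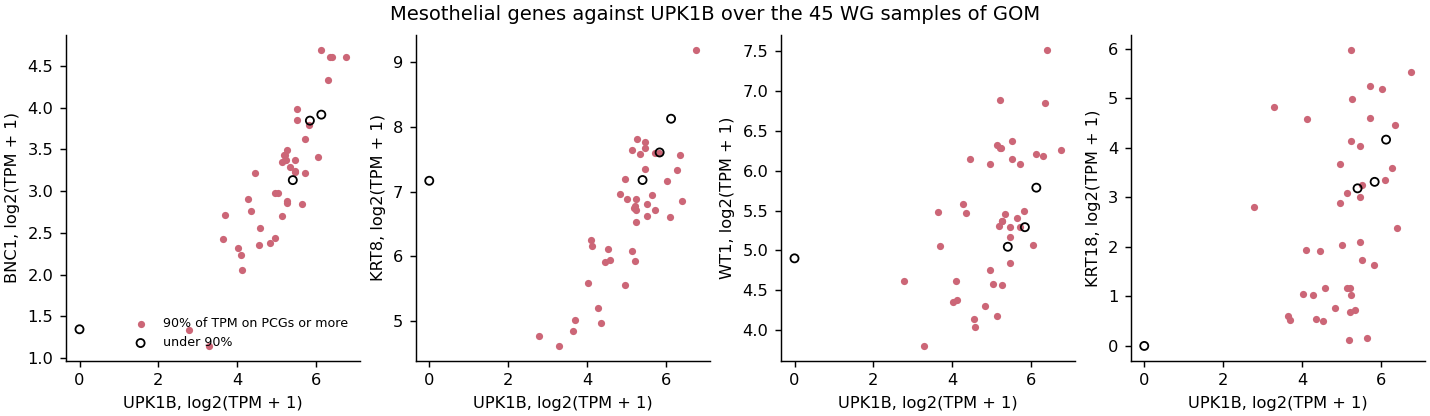
Log2(TPM + 1) of BNC1, KRT8, WT1 and KRT18 on the vertical axes against that of UPK1B on the horizontal axis, 1 point for each of 45 WG GOM samples, open where under 90% of TPM fell on PCGs. BNC1 followed UPK1B most closely, and the sample at 0 of UPK1B is replicate 35.

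In MAD and RAD the coefficients with UPK1B were lower for WT1, KRT8 and BNC1 than in GOM. WT1 gave r = -0.239 with UPK1B over 36 MAD samples (adjusted permutation p = 0.22) and -0.117 over 39 RAD samples (adjusted permutation p = 0.511). The rho of WT1 was -0.292 in MAD and -0.114 in RAD, and its r without the 2 farthest samples was -0.205 and -0.164. BNC1 gave r = 0.397 and rho = 0.381 in MAD (adjusted permutation p = 0.042) and r = 0.370 and rho = 0.392 in RAD (adjusted permutation p = 0.0451), and 0.410 and 0.460 without the 2 farthest samples, but it was above 0.5 TPM in 0 of the 36 and 0 of the 39 samples, and UPK1B was in 26 and 11 of them. KRT8 gave r = 0.297 and rho = 0.269 in MAD (adjusted permutation p = 0.131) and r = 0.324 and rho = 0.332 in RAD (adjusted permutation p = 0.0811), with 0.309 and 0.357 without the 2 farthest samples. The difference of the correlations between depots was not tested. In total 7 of the 15 relations passed the threshold. The share of all PCGs that would pass it with UPK1B was not computed, so this count is not read as particular to the members.

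Compartments were read from the A-B index, a score for each 20-kb bin that is positive where the bin contacts compartment A, the open and active part of the genome, more than compartment B. The bins that hold the gene starts fell into 3 sets. UPK3B, KRT8 and KRT18 were in compartment A in every sample, with group means of 4.28 to 4.85, 2.88 to 3.51 and 2.98 to 3.66. LRRN4 and CALB2 were in compartment B in every sample, with group means of -3.54 to -2.78 and -2.24 to -1.72. WT1, BNC1, UPK1B and KRT19 changed compartment between samples.

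WT1 had the widest range of the 9 bins. In GOM its lowest, median and highest index was 0.47, 2.43 and 3.25 in NC, -0.36, 1.84 and 3.65 in WG, and 1.69, 2.63 and 4.69 in WL. The means in MAD were 0.21, 0.23 and 0.59, those in RAD were -0.42, -0.26 and 0.11, and those in ULB were -1.23, -1.05 and -1.11. The bin was in compartment A in 100, 97.8 and 100% of GOM samples, in 66.7, 56.8 and 100% of MAD samples, in 8.33, 27.5 and 50% of RAD samples, and in no ULB sample. BNC1 was in compartment A in every GOM sample, with means of 1.38, 0.81 and 1.10, and in 27.5 to 83.3% of samples of the other groups.

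**Figure D4:**
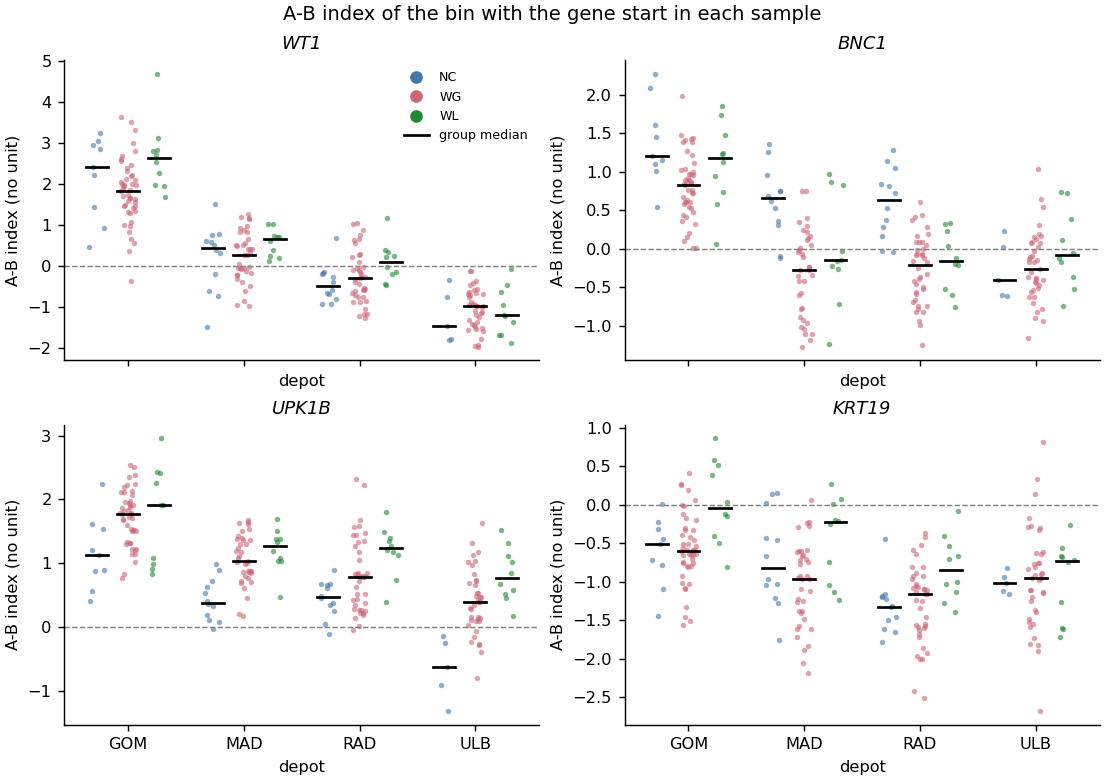
A-B index of the 20-kb bin at the start of WT1, BNC1, UPK1B and KRT19 in each of 240 samples on the vertical axis, by depot on the horizontal axis and nutritional group in colour, with black bars for group medians and a dashed line at 0, above which a bin is in compartment A. The medians of WT1 were highest in GOM and positive in MAD. In RAD they were negative in NC and WG and positive in WL, and in ULB they were negative.

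The index was compared by limma over 113298 bins, and a bin was called where the adjusted p was below 0.05 and the index differed by more than 0.75. Of 81 tests of member bins between GOM and another depot, 24 were called higher in GOM and 0 lower. The share of all bins called higher in NC, WG and WL was 4, 3.81 and 6.74% for GOM over MAD, 9.21, 6.72 and 6.29% for GOM over RAD, and 9.44, 6.97 and 9.21% for GOM over ULB. WT1 and BNC1 were called in 9 of 9 comparisons each, UPK1B in 4 and KRT19 in 2. WT1 differed from MAD by 1.98 (SE 0.37, adjusted p = 0.00136), 1.6 (SE 0.16, adjusted p = 2.75e-14) and 2.08 (SE 0.27, adjusted p = 1.04e-05), from RAD by 2.60, 2.08 and 2.55, and from ULB by 3.41, 2.88 and 3.77. BNC1 differed from MAD by 0.76 (SE 0.22, adjusted p = 0.0196), 1.12 and 1.11. With samples blocked by replicate number, BNC1 in NC differed from MAD by 0.73 and from RAD by 0.71. Both were under the limit of 0.75 and no longer called. UPK1B was called against ULB under each diet, by 1.81, 1.31 and 0.94, and against RAD in WG, by 0.89. KRT19, a keratin of simple epithelia at chr12:21115453-21119115, was called in WL against RAD (0.87, adjusted p = 0.00318) and ULB (1.03, adjusted p = 0.00151).

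Between MAD, RAD and ULB, 10 of 81 tests were called, each with ULB as the lower depot. The share of all bins called in NC, WG and WL was 5.17, 1.24 and 1.07% for MAD over RAD, 11.2, 12.1 and 7.67% for MAD over ULB, and 14.9, 11.3 and 5.71% for RAD over ULB. WT1 was called in the 6 comparisons with ULB, by 1.44, 1.28 and 1.70 for MAD, and the others were UPK1B and BNC1 in NC. Several of these NC calls rested on single ULB samples. Without NC ULB replicate 5 or 12, WT1 in MAD over ULB gave 1.3 and 1.29 (adjusted p = 0.0607 and 0.0637) and in RAD over ULB 0.67 and 0.66 (adjusted p = 0.112 and 0.123), the latter being 0.75 (adjusted p = 0.0891) without replicate 9. BNC1 in MAD over ULB gave 0.80 to 0.86 (adjusted p = 0.0502 to 0.0640) without replicate 5, 7 or 12.

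Between diets, 6 of 108 tests of member bins were called. The share of all bins called for WG over NC, WL over WG and WL over NC was 2.79, 2.53 and 10.1% in GOM, 4.47, 1.01 and 11.2% in MAD, 4.32, 3.83 and 15.8% in RAD, and 6.15, 9.96 and 13.6% in ULB. The share of member tests called lay within the range of these values. BNC1 fell from NC to WG, with differences of -0.93 in MAD (adjusted p = 0.000151) and -0.87 in RAD (adjusted p = 3.6e-05). With the mean of all bins over the gene these differences were -0.69 and -0.66, under the limit of 0.75. UPK1B rose in ULB from NC to WG by 1.05 (adjusted p = 0.00601) and was higher in WL than NC by 1.47 (adjusted p = 0.00162), with no ULB sample of NC and 82.1 and 100% of WG and WL samples in compartment A. Without NC ULB replicate 5 the first of these was 0.89 (adjusted p = 0.0760). UPK1B in MAD, higher in WL than NC by 0.78, and WT1 in GOM, higher in WL than WG by 0.84, gave 0.51 and 0.62 after quantile normalization of the index and were no longer called. The same normalization added calls of lower BNC1, in WG over NC in GOM (-0.75, adjusted p = 0.00510), in WL over NC in MAD (-0.90, adjusted p = 0.0213) and in WL over NC in RAD (-1.04, adjusted p = 0.000101). From sample to sample, RNA and index of the same gene did not move together past the threshold in any of 18 relations within WG GOM, MAD or RAD. The index came from the layer with the adipocytes, and for the RNA no such step is described. The closest were KRT18 in MAD (r = 0.423, rho = 0.316, permutation p = 0.0101, adjusted p = 0.183) and BNC1 in GOM (r = 0.315, rho = 0.358, permutation p = 0.0356, adjusted p = 0.266), with r of 0.351 and 0.380 without the 2 samples farthest from the median, and WT1 in GOM gave r = -0.0479.

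H3K27ac regions within 10 kb of each gene were read from the pooled tables, 5 for GOM, 5 for MAD, 4 for RAD and 4 for ULB. WG is split into numbered subgroups there, and a table has no replicates, so no test was made. BNC1 had a region in 5 of 5 GOM tables, 1 of 5 MAD tables and no RAD or ULB table. Between 65.2 and 85.6% of 18708 genes had a region in a table. The other members had one in 11 to 17 of 18 tables, near or above that share except for CALB2 (11), which was below it. CALB2 had a region in 4 of 4 ULB tables and in 7 of 14 visceral tables. KRT8 and KRT19 each had one in 1 of 4 ULB tables and 5 of 5 MAD tables, with 4 and 5 of 5 GOM tables and 2 and 4 of 4 RAD tables.

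**Figure D5:**
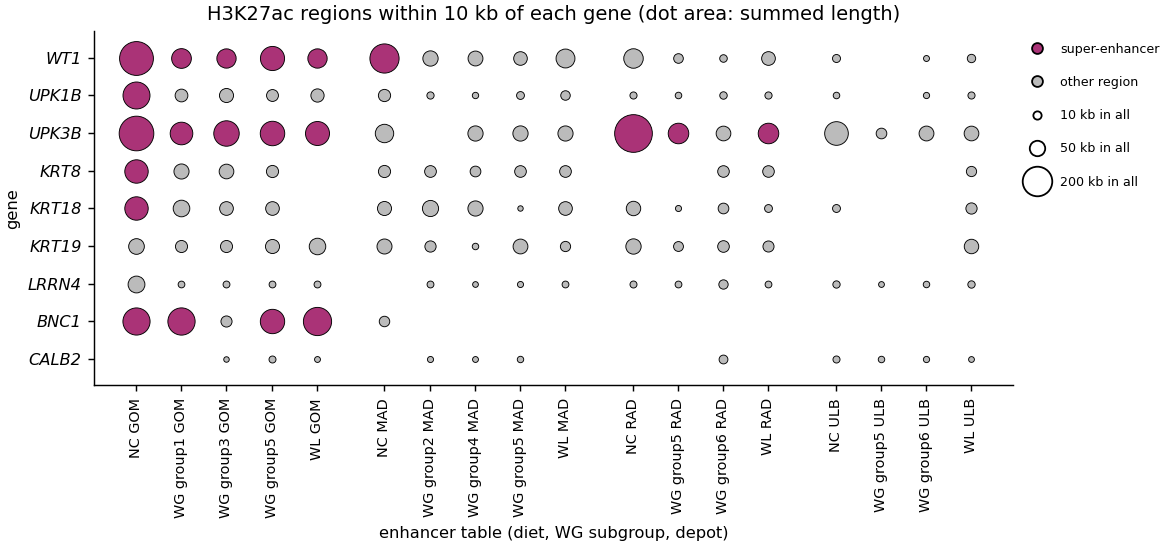
H3K27ac regions within 10 kb of 9 genes (vertical axis) in 18 pooled tables (horizontal axis), with the dot area in proportion to the summed region length and purple for a super-enhancer. BNC1 has dots in the GOM tables and NC MAD, and WT1 is purple in the 5 GOM tables and NC MAD.

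Length and rank differed more than presence. Regions near WT1 summed to 263800 bp in NC GOM, to 85600, 81600 and 131400 bp in WG GOM and to 81800 bp in WL GOM, and each held a super-enhancer, a stitched region above the inflection of ranked signal. In MAD they summed to 194800 bp in NC, also a super-enhancer, and to 37600 to 78000 bp in the other tables, in RAD to 7400 to 83400 bp, and in ULB to 0 to 10400 bp. The NC MAD table, which is also the one outside GOM with a region near BNC1, came from 1 H3K27ac sample. The NC GOM region of WT1, chr2:28279401-28543200, ranked 43 by signal among 20169 regions, with 3.16 times the input signal. It covers the promoter printed above and the whole gene.

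Regions near BNC1 summed to 168000 bp in NC GOM, where chr7:51520401-51688400 ranked 267, to 169000, 23000 and 133800 bp in WG GOM, to 181800 bp in WL GOM and to 19800 bp in NC MAD. UPK1B had a super-enhancer in NC GOM alone, chr13:140876601-141042400 of 165800 bp, with 27200 to 40600 bp in the other GOM tables and at most 5800 bp in ULB. UPK3B, the other uroplakin, at chr3:9878375-9886690, had a super-enhancer in 8 tables, the 5 of GOM and 3 of RAD. KRT8 and KRT18 shared a single NC GOM super-enhancer, chr5:18145401-18268600, of 123200 bp and rank 544. In WL GOM, the group with the highest KRT8 level, no region lay within 10 kb of either keratin. Summed lengths depend on how much was called in a table, and the tables covered between 283.3 and 539.1 Mb.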

How the data were processed

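RNA-seq, in situ Hi-C and H3K27ac ChIP-seq of pig ATs were analysed from the deposited tables. The members and the gene lists were chosen with earlier results of these data known. The authors quantified PCGs with kallisto 0.43.0 on Sscrofa11.1 and deposited estimated counts and TPM, in which 17.8% of PCG count values are 0 and 0 of the others are whole within 1e-09. The deposited A-B index is a score per 20-kb bin of 18 autosomes, made from contact matrices that the authors balanced and normalized between samples. The deposited H3K27ac tables hold the signal, input signal, rank and super-enhancer mark of stitched regions, for which the authors used BWA 0.7.15, SAMtools 1.3.1, SICER and ROSE. In each of the TPM, count and A-B index tables, 9 columns matched no sample and were not used, nor were the files of domain calls.

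Counts were rounded and tested in edgeR 4.0.16 (R 4.3.3) with TMM factors for PCGs that passed 0.5 TPM in 80% or more of the libraries of either group compared, and the index was tested in limma 3.58.1. Correlations used log2(TPM + 1) and 100000 permutations (scipy 1.17.1). UPK1B took the place of UPK3B, MSLN and LRRN4, the references set at first, which had no expression row, a choice made after the tables were seen. The named genes were all members and the 10 other PCGs most like them by group means or within WG. Genes of the other mesothelial list and of the marker lists were named beside them, chosen after their values were seen. Samples of the same number in different depots were checked as pairs. Every pair of deviations correlated above 0.1 in 4 of 18 RNA comparisons and 0 of 18 Hi-C comparisons. The median over pairs was 0.556 to 0.637 in the WG RNA comparisons, against -0.157 to -0.0478 for samples of other numbers. It was 0.0276 to 0.385 in the NC and WL RNA comparisons and -0.0827 to 0.222 for Hi-C. The labels do not say that a number is the same pig, and the main depot tests used no pairing. Alternatives were edgeR's exact test, DESeq2 1.42.0, dropping the filter, a replicate block, a term for low-share libraries, their removal, other index scalings and single-replicate removal. The tests were also run on simulated independent samples modelled on WL GOM and WL ULB. That simulation held no pairing, no effect of low-share libraries and no outlying libraries, so it does not cover them.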

Additional observations from a re-analysis of the deposited data

Results flagged for a closer look

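In 14 of 90 groups of 4 to 10 samples, the highest or lowest sample of a member lay far from the others, by the gap to its nearest neighbour over the range of the group. The limit used is one that about 1 in 20 groups of independent, normally spread values would pass. Many groups here hold values at or near 0, and some libraries were flagged for more than 1 gene. The count is therefore not set against that rate. Several were in depots where the gene is close to 0. In WL ULB these were WT1 in replicate 1 (1.71 TPM against at most 0.420, gap over range 0.649), UPK1B in replicate 9 (0.566 TPM, 0.481), CALB2 in replicate 8 (1.20 TPM, 0.534) and BNC1 in replicate 4, the only library above 0 (0.0705 TPM, 1.0). In NC ULB, replicate 9 was highest in BNC1 (0.436 TPM, 0.76) and lowest in KRT8 (3.54 TPM against 7.56 to 9.87, 0.726), and KRT8 was also lowest in WL ULB replicate 5 (0.791 TPM, 0.491).

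WL MAD replicate 3 was highest in both BNC1 (0.585 TPM, 0.497) and CALB2 (8.09 TPM against at most 2.09, 0.497), and it also had the highest UPK1B (2.94 TPM) and KRT8 (18.5 TPM) of its group. CALB2 stood apart in NC GOM replicate 6 (5.82 TPM, 0.601) and WL GOM replicate 3 (8.25 TPM, 0.513).

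In the A-B index, WT1 was far above the rest in WL GOM replicate 9 (4.69 against 1.69 to 3.12, 0.523) and in WL RAD replicate 3 (1.17 against at most 0.38, 0.484), and KRT18 in NC ULB replicate 2 (3.78 against 2.73 to 2.80, 0.934). The change of BNC1 from NC to WG differed between GOM and MAD by 2.09 on the log2 scale in the interaction test, and this rested on NC MAD replicates 1 and 6.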

How the results depend on the processing

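The depot calls in RNA depended little on the choice of test, but some were lost without the low-share libraries. Against 46 called depot tests, there were 46 with DESeq2 or edgeR's exact test, 45 with the low-share term and 39 without the low-share libraries. With no filter on low values there were 56, from a larger set of tests. The calls lost without the low-share libraries included UPK1B, KRT8 and BNC1 in GOM over MAD in NC. WT1 in GOM over MAD in WL was lost as well. In each of these comparisons 2 GOM samples remained. With the replicate block there were 47, and all 46 were kept. KRT8 in MAD over ULB in NC was gained (-2.02, adjusted p = 0.0271). In the 4 RNA comparisons where every same-number pair correlated above 0.1 the block changed no call. The 10 diet calls were less stable: 18 with no filter, 6 with the low-share term and 3 without the low-share libraries, where BNC1 in WL over WG in GOM turned to -0.36. Leaving out NC MAD replicates 1 and 6, an alternative chosen after seeing the data, took the diet calls with NC MAD from 3 to 1, turned KRT8 in WG over NC in MAD to 0.18 and took the interaction calls from 1 to 0, and the low-share term took them to 3. DESeq2 and the exact test each added UPK1B in WG over NC in GOM and KRT18 in WL over NC in RAD.

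For the index, the 34 depot calls became 62 by adjusted p alone and 25 with the replicate block. Whether index samples of the same number came from the same pig is not stated in the labels. The 9 calls lost with the block included BNC1 in NC, in GOM over MAD (0.73) and GOM over RAD (0.71). Both fell under the limit on the index difference. The other lost calls were of MAD or RAD over ULB. The 6 diet calls became 20 by adjusted p alone and 2 with the mean of bins over the gene. Leaving out each NC ULB sample gave 6 to 9 depot calls against 9, and 1 to 2 diet calls against 2. Counting super-enhancers only, 1 member had an H3K27ac region in MAD (of 9), 1 in RAD (of 8) and 0 in ULB (of 8).

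The pooled H3K27ac tables have no replicates. Outside GOM most values of BNC1, UPK1B and CALB2 were under the 0.5 TPM of the filter, so between MAD, RAD and ULB 0, 2 and 0 of 9 comparisons were tested for them. Why these counts changed with the setting was not tested, beyond the fewer samples or genes that an alternative holds.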

Other observations

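Within WG, the PCGs outside the list that moved most like the mean of the members from sample to sample, by the median of the Spearman correlations in GOM, MAD and RAD among 13150 PCGs, were GFRA1 (0.493), TPPP3 (0.450), LRP2 (0.448), TPPP (0.445), STXBP4 (0.444), PROSER2 (0.436), C1QTNF2 (0.431), MAP2 (0.426) and 2 IDs with no symbol (0.520 and 0.449). LRP2, the endocytic receptor megalin, reached 0.798 in GOM. The mean holds the measured members other than CALB2, and its correlation in MAD and RAD with KRT18, which is part of it and spread most widely there, was 0.903 and 0.924. These are descriptions over samples that share depth and tissue composition.

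The other mesothelial genes were compared between diets in GOM: 1 of 18 tested was called higher and 4 lower in WG over NC (median log2 fold change -0.27), 6 higher and 0 lower in WL over WG (0.56), and 5 higher and 0 lower in WL over NC (0.35). Of all PCGs, 26.7, 5.26 and 36.1% were called in these comparisons, so the count for WG over NC was near that share and the count for WL over NC was below it. As for the members, 8 of 10 WL GOM libraries and 7 of 9 NC GOM libraries were low-share libraries, and their part in these changes was not tested.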
